A study of Mus musculus with 18 samples.

Results

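Transcripts of 7 mouse enzymes that build or cap glycans on glycoproteins were followed in splenic B cells exposed to 2 oligomeric forms of the cytokine BAFF. The genes were B3gnt7, B3gnt8, B3gnt2, B4galt1, Mgat5, St6gal1 and Chst10, which are 7 of the 35275 genes in the deposited expression table. They were named as a list and matched by symbol to the Ensembl gene identifiers of the table, and the list was selected on FPKM values of these same data, in which B3gnt7 and B3gnt8 were known to differ between groups with BAFF 60mer. Values of comparisons that involve BAFF 60mer are therefore given as a description, and no p-value of those comparisons is offered as support for the choice of genes. Of the 7 genes, 6 averaged 1 FPKM or more across the 18 libraries and entered the test, while B3gnt2 (0.606 FPKM) fell below that filter.

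The cells were pan B cells isolated from the spleen of C57BL/6 mice, a standard inbred strain, with no transgene or deletion named in the labels. All cells were held for 1 h with 1000 ng/ml of either mBaffR-mFc, a fusion of the mouse BAFF receptor to a mouse Fc described as blocking the BR3 binding site of BAFF, or a control antibody. BAFF 60mer or BAFF 3mer at 100 ng/ml, or no BAFF, followed for 4 h. The 6 groups of 3 libraries are called BRFc_60mer, BRFc_3mer and BRFc after mBaffR-mFc, and Ab_60mer, Ab_3mer and Ab after the control antibody. The labels do not say whether the libraries of a group came from separate animals or cultures, and a p-value here reflects nothing beyond the spread among these libraries, which may be technical.

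Many cell surface N-glycans carry chains of repeating galactose and N-acetylglucosamine, called poly-N-acetyllactosamine, to which galectins bind. B3GNT enzymes add the N-acetylglucosamine of each repeat and B4GALT enzymes the galactose, and MGAT5 makes the branch on which such chains are often extended. B3GNT2 is the main poly-N-acetyllactosamine synthase, human B3GNT8 acts on branched N-glycans and forms a complex with B3GNT2, and B3GNT7 is known best for extending the chains of keratan sulfate. ST6GAL1 caps galactose with sialic acid in the linkage that the B cell inhibitory receptor CD22 recognises, and CHST10 adds the sulfate of the HNK-1 epitope to a terminal glucuronic acid.

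The promoters of B3gnt7 and B3gnt8, the members that were lower with BAFF 60mer after the control antibody, and of Chst10, which was higher, are shown because these 3 genes carry the results. Each sequence runs 5′ to 3′ on the strand of its gene from 250 bases before to 50 bases after the start (RefSeq, GRCm38.p6). Capitals mark matches on either strand to GGG and CC with any 5 bases between them, a loose form of the site bound by NF-kB, the transcription factor family that acts downstream of BAFF receptors. The windows are chr1:86302971-86303270 on the plus strand for B3gnt7, chr7:25627374-25627673 on the plus strand for B3gnt8 and chr1:38898111-38898410 on the minus strand for Chst10.
B3gnt7: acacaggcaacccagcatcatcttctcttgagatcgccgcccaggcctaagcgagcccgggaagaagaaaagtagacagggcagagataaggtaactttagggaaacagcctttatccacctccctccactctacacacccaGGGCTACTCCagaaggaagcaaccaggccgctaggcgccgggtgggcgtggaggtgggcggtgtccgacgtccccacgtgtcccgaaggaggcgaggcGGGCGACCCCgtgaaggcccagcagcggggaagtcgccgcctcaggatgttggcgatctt
B3gnt8: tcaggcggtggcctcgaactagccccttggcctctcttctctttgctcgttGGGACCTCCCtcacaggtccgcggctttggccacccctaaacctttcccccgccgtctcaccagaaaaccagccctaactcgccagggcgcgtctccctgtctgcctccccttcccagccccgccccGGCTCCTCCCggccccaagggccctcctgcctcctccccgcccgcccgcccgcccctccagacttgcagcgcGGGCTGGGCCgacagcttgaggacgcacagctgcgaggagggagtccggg
Chst10: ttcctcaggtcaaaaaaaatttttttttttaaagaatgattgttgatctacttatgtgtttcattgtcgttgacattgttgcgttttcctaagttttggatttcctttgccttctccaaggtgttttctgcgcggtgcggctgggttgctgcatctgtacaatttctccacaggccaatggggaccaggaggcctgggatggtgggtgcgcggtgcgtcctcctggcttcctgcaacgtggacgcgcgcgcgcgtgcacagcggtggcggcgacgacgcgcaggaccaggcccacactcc
The motif occurred at 2 places in the B3gnt7 window, at 3 in that of B3gnt8 and at 0 in that of Chst10, and 50.8% of 32851 promoter windows of the same length held it. Among the other members it occurred at 3 places for B4galt1, 4 for B3gnt2 and 0 for Mgat5. St6gal1 has 3 windows, with 0, 0 and 4 places. B4galt1, Mgat5 and St6gal1 passed the test described below in no comparison, and B3gnt2 was not tested. The counts are therefore not read against a direction of change. CACCC, the core bound by KLF factors, occurred at 2 places for B3gnt7, 1 for B3gnt8 and 1 for Chst10, and in 57.5% of all windows, counting both strands. CACGTG, an E-box, occurred once in the B3gnt7 window, where 7.15% of all windows held it. These are matches of letters and say nothing of whether a factor binds there.

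Expression was deposited as FPKM, fragments per kilobase of gene length per M fragments (M, mega), which corrects for gene length. Library totals, recovered from the steps between low values, were 12.2 to 25.4 M fragments (median 18.4 M). Those of Ab_60mer were 12.2, 15.1 and 17.4 M, and those of BRFc_60mer were 16.1, 15.9 and 21.5 M. Ab_60mer replicate 1 had the lowest total and also the lowest level of B3gnt7, B3gnt8 and St6gal1 of all libraries. The part of depth in these levels was not tested. Defining B cell genes were present in each library, with 772 to 936 FPKM of Cd79a and 173 to 229 FPKM of Pax5. The libraries fell into 2 sets by their connective tissue transcripts, and Ab_3mer was the only group divided between them. The summed level of Col1a1, Col1a2, Col3a1, Sparc, Dcn and Bgn was 8.14 to 12.9 FPKM in 8 libraries, namely all of BRFc_60mer and Ab_60mer and replicates 1 and 2 of Ab_3mer, and 0 to 0.131 FPKM in the other 10. Of these 6 genes, 5 were at 0 in all BRFc libraries and 3 in all libraries of BRFc_3mer and of Ab. Each comparison of a BAFF 60mer group with BRFc, BRFc_3mer or Ab therefore sets libraries with these transcripts against libraries without them. The summed level of 5 dendritic cell genes (Flt3, Zbtb46, Itgax, Siglech and the nearly absent Xcr1) was 17.8 to 22.5 FPKM in the BAFF 60mer libraries and 12.7 to 15.5 FPKM in the others. Zbtb46 alone had 14.2 to 18.05 FPKM in the BAFF 60mer libraries and 8.68 to 11.03 FPKM in the others, and the sum of the other 4 genes overlapped, at 3.59 to 4.44 FPKM and 3.50 to 5.05 FPKM in the same sets. The summed level of 5 NK cell genes (Ncr1, Klrb1c, Klrd1, Nkg7 and Prf1) was 41.9 to 48.0 FPKM in BAFF 60mer libraries and 42.4 to 52.4 FPKM in the others. The sum of 6 myeloid genes (Lyz2, Csf1r, Itgam, S100a8, S100a9 and Adgre1) was larger. It was 143.9 to 166.5 FPKM in BAFF 60mer libraries and 151.0 to 177.6 FPKM in the others. Lyz2 alone had 95.6 to 120.0 FPKM over all libraries. The part of these cells in the results below was not tested, and in bulk RNA fewer cells of a type and less RNA per cell cannot be told apart.

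St6gal1 and B4galt1, which act on most N-glycans, were the most abundant members, with means of 105.7 and 63.2 FPKM over all libraries. Chst10 followed with 27.3 FPKM, B3gnt7 with 15.6 FPKM, Mgat5 with 12.9 FPKM, B3gnt8 with 7.72 FPKM and B3gnt2 with 0.606 FPKM. Among 158 glycan pathway genes in the table, St6gal1 ranked at position 8 by this mean, B4galt1 at 15 and B3gnt2 at 104. The ratio of the highest to the lowest group mean was 2.07 for B3gnt8, 1.59 for Chst10 and 1.54 for B3gnt7, and between 1.06 and 1.12 for B4galt1, Mgat5 and St6gal1. The first 3 therefore varied most over the groups among the tested members.

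**Figure D1:**
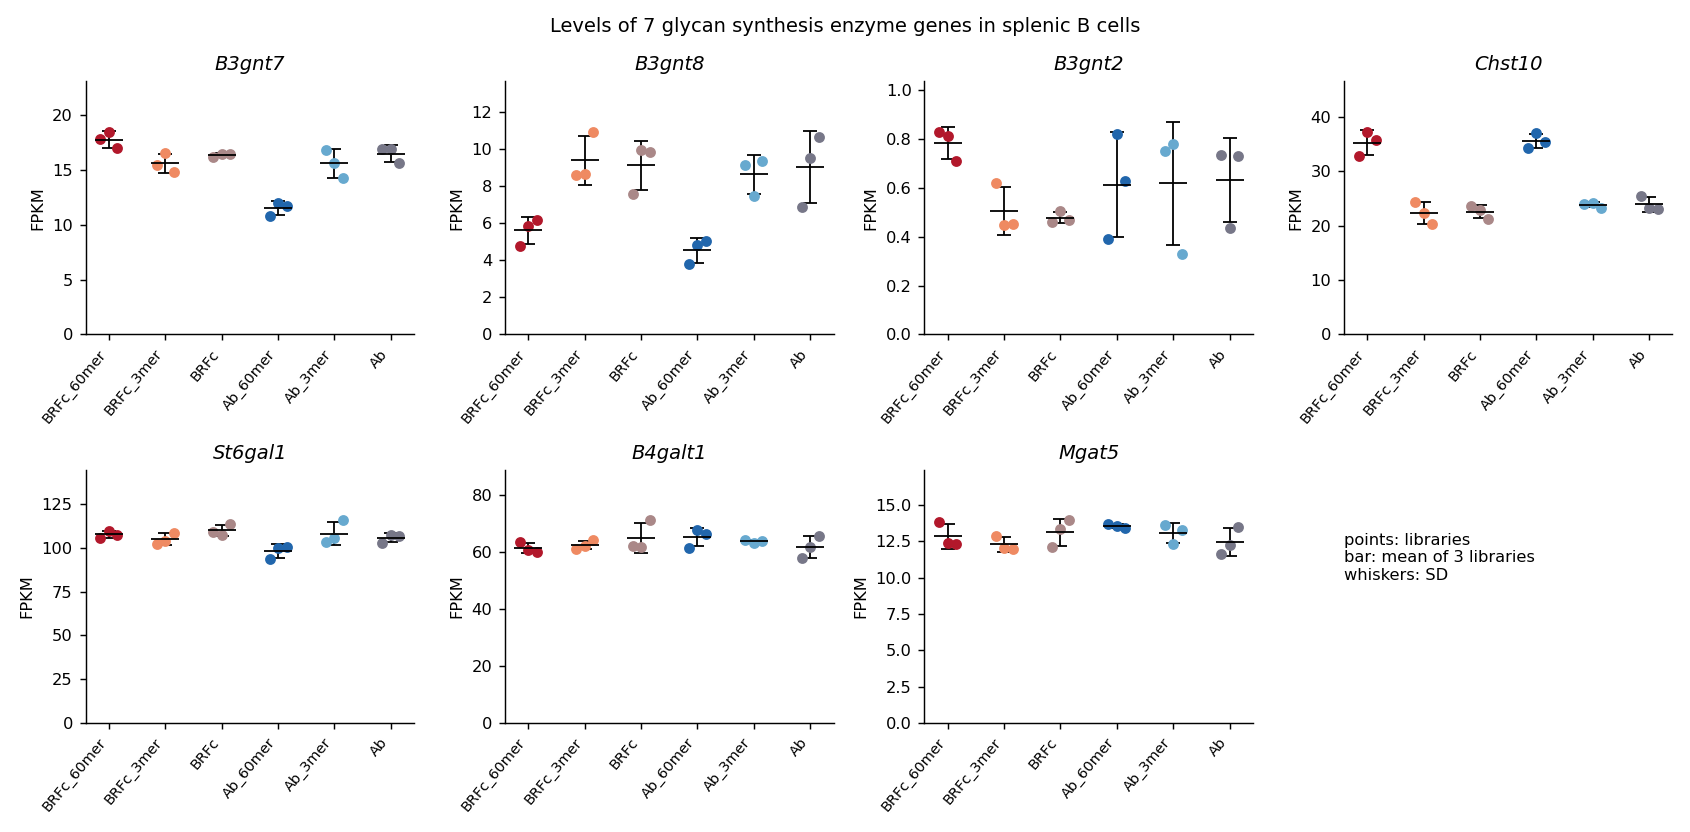
FPKM of the 7 genes in each library (points), with the mean and SD of 3 libraries (bar and whiskers), by group from BRFc_60mer to Ab; each panel has its own axis from 0. B3gnt7 is low in Ab_60mer (10.8 to 11.99 FPKM) beside 14.3 to 18.5 FPKM in the other 15 libraries, B3gnt8 is lower and Chst10 higher in the libraries with BAFF 60mer of both pretreatments, and B3gnt2 stays under 1 FPKM.

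B3gnt7 encodes an N-acetylglucosaminyltransferase that elongates lactosamine chains, and lies on the plus strand of chromosome 1 at 86302832 to 86307305 (GRCm38). Its level was 17.9, 18.5 and 16.97 FPKM in the BRFc_60mer libraries, against 10.8, 11.99 and 11.8 FPKM in those of Ab_60mer. The groups do not overlap, and the highest Ab_60mer library lies below each library of the other 5 groups. B3gnt7 had 15.5, 16.5 and 14.8 FPKM in BRFc_3mer, against 16.8, 15.7 and 14.3 FPKM in Ab_3mer. It had 16.2, 16.5 and 16.4 FPKM in BRFc, against 16.9, 16.9 and 15.6 FPKM in Ab. With BAFF 3mer and without BAFF the libraries of both pretreatments overlap.

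Ordered by mean, B3gnt7 was highest in BRFc_60mer (17.8 ± 0.767 FPKM), followed by Ab (16.5 ± 0.747), BRFc (16.4 ± 0.155), BRFc_3mer (15.6 ± 0.864) and Ab_3mer (15.6 ± 1.29), and lowest in Ab_60mer (11.5 ± 0.639; SD, n = 3 each). The neighbours from Ab to Ab_3mer in this order overlap in their libraries. The lowest BRFc_60mer library (16.97 FPKM) was just above the highest of Ab (16.94 FPKM).

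After the control antibody, B3gnt7 fell with BAFF 60mer to 0.698 of its mean without BAFF and to 0.738 of its mean with BAFF 3mer. The log2 differences, on the scale of log2(FPKM + 1), were -0.48 ± 0.063 against no BAFF and -0.41 ± 0.063 against BAFF 3mer (SE). After mBaffR-mFc the ratio of means was 1.09 against no BAFF and 1.14 against BAFF 3mer, with log2 differences of 0.11 ± 0.063 and 0.18 ± 0.063, neither of which passed. All libraries of BRFc_60mer were above those of BRFc and BRFc_3mer. A gene is counted as passing at a Benjamini-Hochberg adjusted p under 0.05 in limma over all 11646 genes tested.

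Set against each other at BAFF 60mer, BRFc_60mer exceeded Ab_60mer by 0.59 ± 0.063 on the log2 scale, a ratio of mean FPKM of 1.54. Of all genes tested, 3 passed in this comparison (0.0258%), which are B3gnt7, the secreted phosphoprotein gene Spp1 and the protein kinase A inhibitor gene Pkib. Spp1 had 4.45, 5.40 and 5.57 FPKM in BRFc_60mer, against 2.0, 2.37 and 2.27 FPKM in Ab_60mer, and a log2 difference of 0.93 ± 0.139. Pkib had 25.3, 25.7 and 22.7 FPKM in BRFc_60mer, against 18.01, 14.2 and 15.5 FPKM in Ab_60mer, and a log2 difference of 0.60 ± 0.081. In the groups without BAFF 60mer the means ran from 1.72 to 3.22 FPKM for Spp1 and from 14.4 to 17.8 FPKM for Pkib. The Ab_60mer means (2.21 and 15.9 FPKM) lie within these ranges and those of BRFc_60mer (5.14 and 24.6 FPKM) above. B3gnt7 differs from both in being lowest in Ab_60mer. Both groups carry the connective tissue transcripts, at 9.79 to 10.7 FPKM in BRFc_60mer and 8.14 to 10.6 FPKM in Ab_60mer. Without each of the 6 libraries in turn the B3gnt7 difference ran from 0.54 to 0.62 and passed each time, but it did not pass when only these 2 groups were fitted (adjusted p = 0.154).

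The interaction asks whether the BAFF 60mer difference from no BAFF is the same after both pretreatments. For B3gnt7 it was 0.60 ± 0.089 on the log2 scale, the one value of 11646 to pass (0.00859%). It lay just inside the threshold, with an adjusted p of 0.047 in limma, and in 12 fits that each left out 1 library it passed in 0, with values between 0.55 and 0.63 and adjusted p between 0.0561 and 0.247. With all libraries it did not pass without the filter on low values (adjusted p = 0.118), with median-of-ratios rescaling (0.0518) or in a fit of only the 4 groups compared (0.0898). It passed with a pseudocount of 0.1 (0.0435), a minimum of 5 FPKM (0.0338) and the connective tissue term described below (0.0227). That term cannot check this value, which stayed at 0.60. Both BAFF 60mer groups carry the transcripts and both groups without BAFF lack them, so the term cancels.

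B3gnt8, whose product extends lactosamine chains on branched N-glycans, lies on the plus strand of chromosome 7 at 25626654 to 25635100. Its level was 4.77, 5.86 and 6.19 FPKM in BRFc_60mer, 8.62, 8.63 and 10.9 FPKM in BRFc_3mer and 7.59, 9.93 and 9.82 FPKM in BRFc. After the control antibody it was 3.77, 4.80 and 5.03 FPKM in Ab_60mer, 9.13, 7.44 and 9.35 FPKM in Ab_3mer and 6.89, 9.51 and 10.7 FPKM in Ab. The 6 libraries with BAFF 60mer (3.77 to 6.19 FPKM) lie below the other 12 (6.89 to 10.9 FPKM) with no overlap. Among the 4 groups without BAFF 60mer, and between BRFc_60mer and Ab_60mer, the libraries overlap.

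B3gnt8 fell with BAFF 60mer to 0.615 of its mean without BAFF after mBaffR-mFc and to 0.503 after the control antibody. After mBaffR-mFc the log2 differences were -0.61 ± 0.147 against no BAFF and -0.65 ± 0.147 against BAFF 3mer. Those after the control antibody were -0.84 ± 0.147 and -0.80 ± 0.147 against the same groups. All 4 passed, those after mBaffR-mFc not in every fit that left out a library. Against no BAFF it did not pass without BRFc replicate 2 or 3 or BRFc_60mer replicate 1 or 2 (adjusted p up to 0.103). Against BAFF 3mer it did not pass without BRFc_3mer replicate 3 (adjusted p = 0.093) or BRFc_60mer replicate 1 (0.0701). The interaction was 0.23 ± 0.208, with a confidence interval of 95% from -0.21 to 0.67, so that neither an equal nor a smaller fall after mBaffR-mFc is shown.

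B3gnt8 shares 1171 exon bases with Bckdha on the opposite strand, a gene of branched-chain amino acid breakdown with a mean of 21.4 FPKM. The labels do not say whether reads were counted by strand, so some fragments counted for either gene may belong to the other. Bckdha itself had log2 differences of -0.20 ± 0.078 after mBaffR-mFc and -0.18 ± 0.078 after the control antibody for BAFF 60mer against no BAFF, neither of which passed. The B3gnt8 values rest on an inferred 68 to 368 fragments a library, those of B3gnt7 on 263 to 832. On the opposite strand, B3gnt7 shares 520 exon bases with the gene model Gm28626, listed at 0. St6gal1 shares 200 with BC106179, at a mean of 0.531 FPKM. Fragments of these pairs may be misassigned in the same way.

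B3gnt2, the main poly-N-acetyllactosamine synthase, lies on the minus strand of chromosome 11 at 22759738 to 22860961 and was not tested. It was read at an inferred 10 to 32 fragments a library. Its level was 0.830, 0.811 and 0.711 FPKM in BRFc_60mer, 0.621, 0.447 and 0.453 FPKM in BRFc_3mer and 0.462, 0.505 and 0.469 FPKM in BRFc. After the control antibody it was 0.390, 0.821 and 0.6302 FPKM in Ab_60mer, 0.749, 0.779 and 0.330 FPKM in Ab_3mer and 0.733, 0.436 and 0.731 FPKM in Ab. The BRFc_60mer libraries lie above those of BRFc and BRFc_3mer, but the counting intervals of single libraries are wide. They run from 0.552 to 1.20 FPKM for BRFc_60mer replicate 1 and from 0.274 to 0.730 FPKM for BRFc replicate 1 (exact Poisson, 95%, counting error only). Of these 3 groups only BRFc_60mer carries the connective tissue transcripts. Within Ab_3mer, B3gnt2 had 0.749 and 0.779 FPKM in the libraries that carry them and 0.330 FPKM in the one that does not. Over all libraries it had 0.390 to 0.830 FPKM (median 0.764) in the 8 with these transcripts. In the 10 without them it had 0.330 to 0.733 FPKM (median 0.465). The part of these transcripts in the B3gnt2 values was not tested. B3gnt2 shares 2449 exon bases on the same strand with the gene model Gm28048, listed at 0. On that strand it also shares 288 with the processed pseudogene Gm12057, at a mean of 0.534 FPKM. On the opposite strand it shares 22 with 9130230N09Rik, at a mean of 1.83 FPKM. The count of B3gnt2 is therefore uncertain.

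B4galt1, the galactosyltransferase that completes each lactosamine unit (chromosome 4, 40804602 to 40854005, minus strand), ranged from 57.8 to 71.0 FPKM over the 18 libraries. Its means were 61.4 ± 1.85 FPKM in BRFc_60mer, 62.4 ± 1.47 in BRFc_3mer, 64.9 ± 5.31 in BRFc, 65.2 ± 3.25 in Ab_60mer, 63.7 ± 0.534 in Ab_3mer and 61.7 ± 3.91 in Ab (SD, n = 3 each). All neighbours in the order of these means overlap. With BAFF 60mer against no BAFF it was at -0.08 ± 0.056 on the log2 scale after mBaffR-mFc and at 0.08 ± 0.056 after the control antibody, and it passed in no comparison.

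Mgat5, which makes the branch preferred for lactosamine extension (chromosome 1, 127205015 to 127488336, plus strand), ranged from 11.6 to 13.9 FPKM. Its means were 12.8 ± 0.881 FPKM in BRFc_60mer, 12.3 ± 0.503 in BRFc_3mer, 13.1 ± 0.931 in BRFc, 13.5 ± 0.112 in Ab_60mer, 13.1 ± 0.703 in Ab_3mer and 12.4 ± 0.964 in Ab (SD, n = 3 each). Its log2 difference with BAFF 60mer against no BAFF was -0.03 ± 0.067 after mBaffR-mFc and 0.12 ± 0.067 after the control antibody. It passed in no comparison, and all neighbouring groups overlap. Mgat5 shares 152 exon bases with Tmem163 on the opposite strand, a zinc transporter gene at a mean of 15.3 FPKM.

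St6gal1, which makes the sialic acid linkage seen by CD22 (chromosome 16, 23224740 to 23360350, plus strand), had 105.6, 109.8 and 107.5 FPKM in BRFc_60mer, 102.3, 103.7 and 108.6 FPKM in BRFc_3mer and 109.3, 107.1 and 113.3 FPKM in BRFc. After the control antibody it had 93.7, 100.01 and 100.6 FPKM in Ab_60mer, 103.3, 105.4 and 115.6 FPKM in Ab_3mer and 102.7, 107.5 and 106.9 FPKM in Ab. As for B3gnt7, the libraries of Ab_60mer are the lowest and overlap with no other group. The differences are smaller, with log2 values of -0.11 ± 0.045 for Ab_60mer against Ab and 0.13 ± 0.045 for BRFc_60mer against Ab_60mer, and neither passed. Its interaction was 0.08 ± 0.064.

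Chst10, the HNK-1 sulfotransferase, lies on the minus strand of chromosome 1 at 38863867 to 38898161 and was the member that rose. It had 32.8, 37.3 and 35.9 FPKM in BRFc_60mer, 24.4, 22.3 and 20.3 FPKM in BRFc_3mer and 23.6, 22.9 and 21.2 FPKM in BRFc. After the control antibody it had 34.4, 37.0 and 35.4 FPKM in Ab_60mer, 24.0, 24.2 and 23.3 FPKM in Ab_3mer and 25.4, 23.3 and 23.0 FPKM in Ab. The BAFF 60mer libraries of both pretreatments (32.8 to 37.3 FPKM) overlap with each other and lie above the other 12 (20.3 to 25.4 FPKM).

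With BAFF 60mer the mean of Chst10 was 1.56 times that without BAFF after mBaffR-mFc and 1.49 times after the control antibody. After mBaffR-mFc the log2 differences were 0.62 ± 0.065 against no BAFF and 0.64 ± 0.065 against BAFF 3mer. Those after the control antibody were 0.55 ± 0.065 and 0.56 ± 0.065 against the same groups. All 4 passed, also in each fit that left out 1 library. At BAFF 60mer, BRFc_60mer and Ab_60mer differed by -0.01 ± 0.065. The interaction was 0.07 ± 0.093, with a confidence interval of 95% from -0.13 to 0.26.

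**Figure D2:**
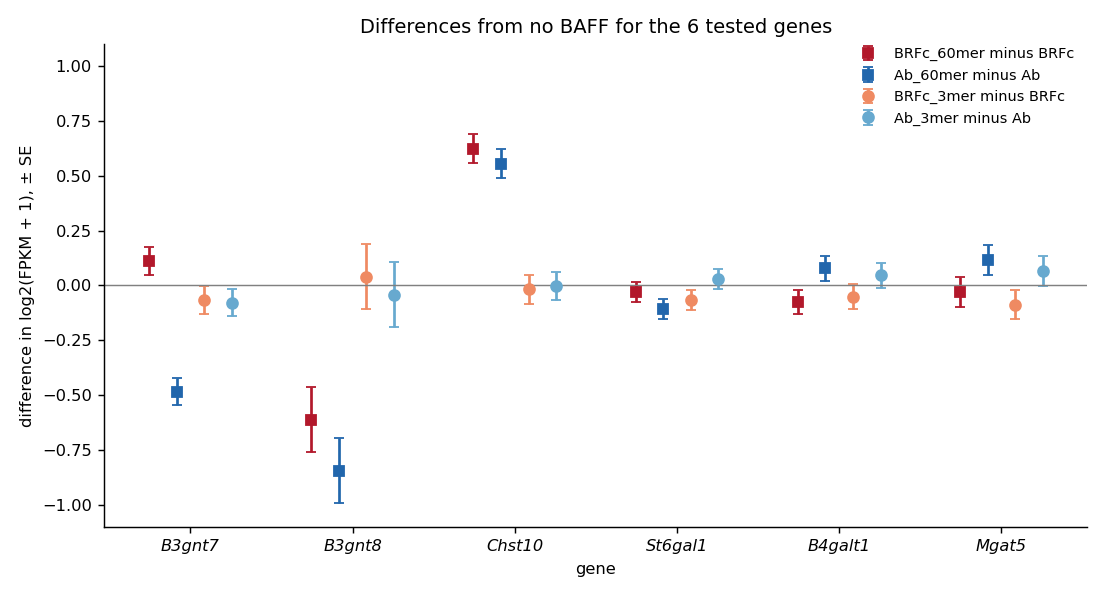
Difference in log2(FPKM + 1) from no BAFF for the 6 tested genes, with the standard error from limma; squares show BAFF 60mer, circles BAFF 3mer, red and orange mBaffR-mFc, blue control antibody. B3gnt7 is at 0.11 after mBaffR-mFc and -0.48 after the control antibody with BAFF 60mer, B3gnt8 is below 0 and Chst10 above 0 after both, and the BAFF 3mer values lie between -0.09 and 0.07.

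Of the 6 tested members, 1 was higher and 1 lower with BAFF 60mer against no BAFF after mBaffR-mFc, where 4.83% of all tested genes passed (1.46% higher, 3.37% lower). The counts after the control antibody were 1 higher and 2 lower, where 14% of all genes passed (5.04% higher, 8.94% lower). Against BAFF 3mer 1 was higher and 1 lower after mBaffR-mFc, where 5.16% of all genes passed (2.05% higher, 3.11% lower). The counts after the control antibody were again 1 and 2, where 4.81% passed (1.8% higher, 3.01% lower). With median-of-ratios rescaling the higher share of all calls against no BAFF was 43.9% after mBaffR-mFc and 46.4% after the control antibody, in place of 30.2% and 36.1%. The shares of all genes themselves depend on single libraries. Against no BAFF, the 563 genes that passed after mBaffR-mFc became 242 without BRFc replicate 3, 306 without BRFc replicate 2, 340 without BRFc_60mer replicate 1 and 321 without BRFc_60mer replicate 2. The 1628 after the control antibody became 823 without Ab replicate 1, 1000 without Ab replicate 2, 756 without Ab_60mer replicate 1 and 983 without Ab_60mer replicate 2. Against BAFF 3mer, the 601 after mBaffR-mFc became 233 without BRFc_3mer replicate 3, 270 without BRFc_3mer replicate 2 and 343 without BRFc_60mer replicate 2. The 560 after the control antibody became 246 without Ab_3mer replicate 3, 318 without Ab_3mer replicate 1, 259 without Ab_60mer replicate 1 and 353 without Ab_60mer replicate 2. At BAFF 60mer, 1 member passed between the pretreatments. Since the genes were chosen with these differences known, the counts are given beside the shares of all genes without a reading of either.

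The libraries that carry connective tissue transcripts lie beside these values as follows. The Ab_3mer libraries that carry them had 15.7 and 16.8 FPKM of B3gnt7, 7.44 and 9.13 FPKM of B3gnt8 and 24.0 and 24.2 FPKM of Chst10, and the one that does not had 14.3, 9.35 and 23.3 FPKM. The Ab_60mer libraries against these 2 Ab_3mer libraries gave log2 differences of -0.46 ± 0.064 for B3gnt7, -0.75 ± 0.167 for B3gnt8 and 0.54 ± 0.075 for Chst10, and all 3 passed. With the presence of these transcripts as a term in the fit, BAFF 60mer against no BAFF after the control antibody left B3gnt7 past the threshold (-0.66 ± 0.104) but not B3gnt8 (-0.68 ± 0.269) or Chst10 (0.51 ± 0.121). After mBaffR-mFc none of the members passed with that term, with -0.45 ± 0.269 for B3gnt8 and 0.58 ± 0.121 for Chst10. Calls over all genes were lost too. With the term, 10 genes of all passed against no BAFF after mBaffR-mFc (70% of them higher), in place of 563, and 16 after the control antibody (56.2% higher), in place of 1628. Against BAFF 3mer, 15 passed after mBaffR-mFc (73.3% higher), in place of 601, and 246 after the control antibody (41.9% higher), in place of 560. In this fit the effect of the term is set by the Ab_3mer libraries alone, of which 1 lacks the transcripts, and the standard errors are larger.

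**Figure D3:**
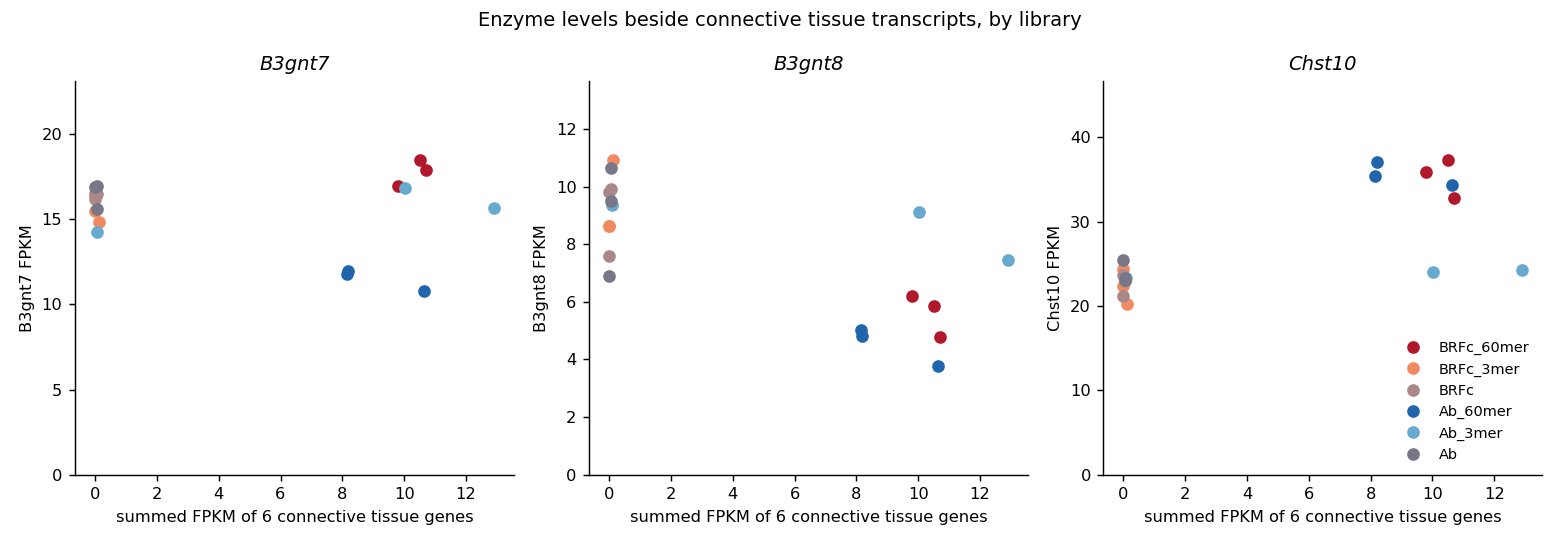
FPKM of B3gnt7, B3gnt8 and Chst10 against the summed FPKM of 6 connective tissue genes in each library, coloured by group. The libraries fall at 0 to 0.131 or at 8.14 to 12.9 FPKM on the horizontal axis; the Ab_3mer libraries on the right lie with the libraries that lack BAFF 60mer in each panel.

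BAFF 3mer moved none of the 6 tested members past the threshold, after either pretreatment. After mBaffR-mFc the log2 differences from no BAFF ran from -0.09 ± 0.067 for Mgat5 to 0.04 ± 0.147 for B3gnt8 (adjusted p between 0.999 and 1.00, limma). The range after the control antibody was from -0.08 ± 0.063 for B3gnt7 to 0.07 ± 0.067 for Mgat5 (adjusted p between 0.901 and 0.998). Of the Ab_3mer libraries, replicates 1 and 2 carry the connective tissue transcripts, and all Ab libraries lack them. With the connective tissue term, set by the Ab_3mer libraries alone, the B3gnt7 difference was -0.20 in place of -0.08. That of St6gal1 was 0.13 in place of 0.03. For B3gnt7 the confidence interval of 95% was -0.20 to 0.07 after mBaffR-mFc and -0.21 to 0.05 after the control antibody, and for Chst10 it was -0.16 to 0.12 after mBaffR-mFc and -0.14 to 0.14 after the control antibody. That of B3gnt8 was wider, from -0.27 to 0.35 after mBaffR-mFc and from -0.35 to 0.27 after the control antibody. Of all 11646 genes, 0 passed in either comparison in limma (388 after mBaffR-mFc and 632 after the control antibody at an unadjusted p under 0.05).

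Without BAFF, mBaffR-mFc against the control antibody gave log2 differences between -0.08 ± 0.065 for Chst10 and 0.07 ± 0.067 for Mgat5 (adjusted p between 0.909 and 0.988, limma). With BAFF 3mer they ran from -0.10 ± 0.065 for Chst10 to 0.11 ± 0.147 for B3gnt8 (adjusted p = 0.998 for each). For B3gnt7 they were -0.01 ± 0.063 without BAFF and 0.002 ± 0.063 with BAFF 3mer, with confidence intervals of 95% from -0.14 to 0.12 and from -0.13 to 0.13. None of the members passed in these comparisons or in the interaction of BAFF 3mer with the pretreatment, where 0 of all genes did (688, 452 and 560 at an unadjusted p under 0.05).

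Other genes of glycan synthesis and recognition were read from lists of 160 genes, of which 158 were in the table and 151 were not members. Of these, 93 were tested. With BAFF 60mer against no BAFF, 3 were higher and 5 lower after mBaffR-mFc (8.60% of 93, beside 4.83% of all genes) and 5 were higher and 17 lower after the control antibody (23.7%, beside 14%). The 8 genes that passed after mBaffR-mFc were also among the 22 after the control antibody. The matching overlap over all genes is not given here, so this overlap is not read as a trait of glycan genes. The 8 genes are St8sia6, Fcer2a and Gfpt1 (higher) and B3gnt5, Gcnt1, Hs3st1, Cd22 and Siglecg (lower). The median log2 difference of the 93 was -0.04 after mBaffR-mFc and -0.05 after the control antibody, beside -0.02 and -0.02 over all tested genes. Against BAFF 3mer, 5 were higher and 5 lower after mBaffR-mFc (10.8% of 93, beside 5.16% of all genes) and 4 were higher and 7 lower after the control antibody (11.8%, beside 4.81%). With the connective tissue term, the 8 genes against no BAFF after mBaffR-mFc became 1 and the 22 after the control antibody became 1. Nearly all calls against no BAFF, in this paragraph and in the lists that follow, were thus lost. Against BAFF 3mer the 10 after mBaffR-mFc became 1 and the 11 after the control antibody became 9. Elsewhere, both interactions included, 0 of the 93 passed.

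With BAFF 60mer against no BAFF, 3.37% of all tested genes were lower and 1.46% higher after mBaffR-mFc. The shares after the control antibody were 8.94% lower and 5.04% higher. They stand beside the counts of each list below, which are small and are not read as a trait of the list. In the list of poly-N-acetyllactosamine and galactose transfer, 1 of 8 tested genes fell after mBaffR-mFc, 3 fell after the control antibody, and 0 rose. B3gnt5, which makes the lactosamine core of glycolipids, had 123.6 ± 4.41 FPKM in BRFc_60mer and 144.0 ± 4.62 in BRFc, and 117.5 ± 3.17 in Ab_60mer and 140.8 ± 4.03 in Ab (SD, n = 3 each). Its log2 difference was -0.22 ± 0.042 after mBaffR-mFc and -0.26 ± 0.042 after the control antibody, and both passed. B4galt7, the galactosyltransferase of the proteoglycan linker, was at -0.02 ± 0.066 after mBaffR-mFc and fell after the control antibody (-0.30 ± 0.066). B4galt3 was at -0.11 ± 0.073 after mBaffR-mFc and fell after the control antibody (-0.35 ± 0.073), and neither gene passed in the interaction.

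Of 12 tested genes of N-glycan trimming and branching, 0 passed after mBaffR-mFc and 1 fell after the control antibody, the Golgi mannosidase gene Man2a2 (-0.20 ± 0.062 after mBaffR-mFc, -0.26 ± 0.062 after the control antibody). Mgat1, which starts complex N-glycans, was at -0.13 ± 0.059 after mBaffR-mFc and -0.18 ± 0.059 after the control antibody and did not pass. Of 12 tested sialyltransferases, 1 passed after each pretreatment. St8sia6, an alpha2,8-sialyltransferase, had 11.8, 12.03 and 11.9 FPKM in BRFc_60mer, against 8.71, 8.16 and 8.81 FPKM in BRFc. It had 12.6, 12.9 and 12.8 FPKM in Ab_60mer, against 7.19, 7.51 and 8.47 FPKM in Ab. The groups do not overlap, and it rose by 0.44 ± 0.063 after mBaffR-mFc and by 0.66 ± 0.063 after the control antibody on the log2 scale. St3gal6 was at 0.18 ± 0.061 after mBaffR-mFc and 0.12 ± 0.061 after the control antibody and did not pass.

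Chst10 was on the list of carbohydrate sulfotransferases and HNK-1 glucuronyltransferases, of whose 12 other tested genes 0 rose, 1 fell after mBaffR-mFc and 4 fell after the control antibody. Hs3st1, a heparan sulfate sulfotransferase, fell after both (-0.36 ± 0.101 after mBaffR-mFc, -0.49 ± 0.101 after the control antibody). Chst12, a chondroitin sulfotransferase, had 17.5, 18.2 and 17.2 FPKM in BRFc_60mer, against 21.6, 20.3 and 19.0 FPKM in BRFc. It had 14.9, 17.2 and 15.8 FPKM in Ab_60mer, against 23.6, 21.5 and 21.8 FPKM in Ab. It was at -0.19 ± 0.064 after mBaffR-mFc, which did not pass, and fell after the control antibody (-0.46 ± 0.064).

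Of 10 tested genes of mucin-type O-glycan synthesis, 1 fell after each pretreatment, Gcnt1, which makes the core 2 branch. Gcnt1 had 12.7, 11.5 and 10.9 FPKM in BRFc_60mer, against 15.9, 17.6 and 19.5 FPKM in BRFc. It had 11.5, 11.5 and 11.1 FPKM in Ab_60mer, against 14.8, 15.1 and 16.3 FPKM in Ab. Its groups do not overlap, with log2 differences of -0.55 ± 0.072 after mBaffR-mFc and -0.41 ± 0.072 after the control antibody.

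Of the 26 tested genes of sugar donor synthesis and transport, Gfpt1, which starts the hexosamine pathway, rose after both pretreatments (0.20 ± 0.050 after mBaffR-mFc, 0.34 ± 0.050 after the control antibody). After mBaffR-mFc it was the one gene of this list to pass, and after the control antibody 2 were higher and 4 lower. Those that fell included Uap1l1 (-0.50 ± 0.071) and Cmas, the sialic acid activation gene (-0.22 ± 0.053). Of 3 tested fucosyltransferases, 0 passed after mBaffR-mFc, and after the control antibody Pofut1, which acts on Notch receptors, rose by 0.19 ± 0.052 and Pofut2 fell (-0.24 ± 0.072).

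Of 10 tested glycan-binding proteins, 1 rose and 2 fell after mBaffR-mFc, and 1 rose and 3 fell after the control antibody. Cd22, the receptor of the glycans that ST6GAL1 caps, had 166.7 ± 6.73 FPKM in BRFc_60mer and 190.2 ± 5.91 in BRFc, and 160.2 ± 4.22 in Ab_60mer and 189.7 ± 7.12 in Ab (SD, n = 3 each). Cd22 fell by log2 differences of -0.19 ± 0.043 after mBaffR-mFc and -0.24 ± 0.043 after the control antibody. Siglecg, a related inhibitory receptor, fell too (-0.44 ± 0.093 after mBaffR-mFc, -0.47 ± 0.093 after the control antibody). Fcer2a, the C-type lectin CD23, rose (0.51 ± 0.040 after mBaffR-mFc, 0.35 ± 0.040 after the control antibody). Lgals4, a galectin, was at -0.15 ± 0.124 after mBaffR-mFc and fell after the control antibody (-0.61 ± 0.124).

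**Figure D4:**
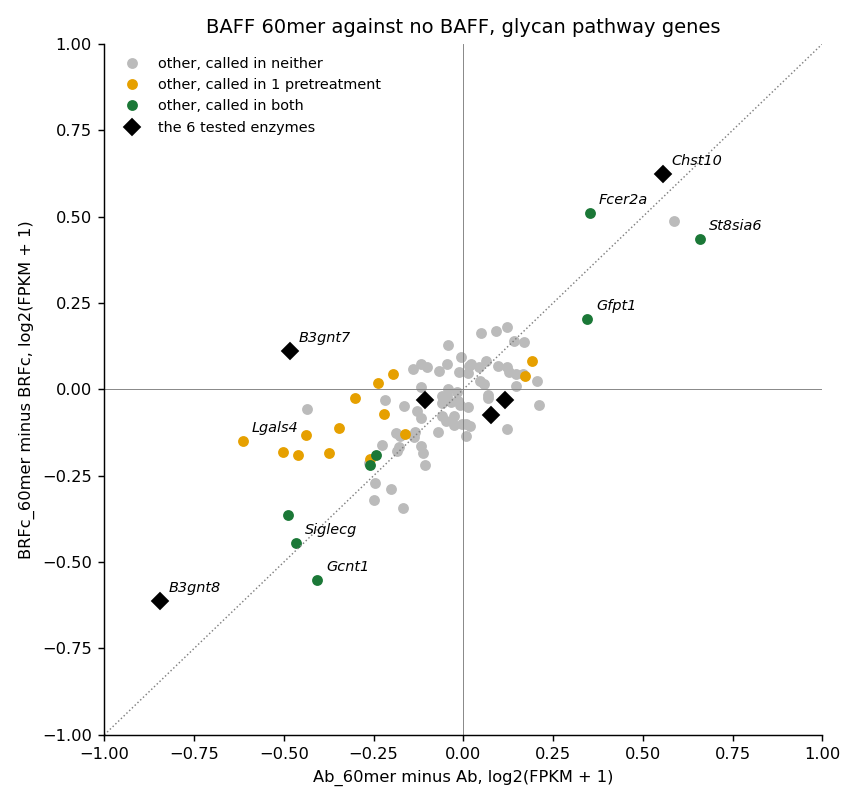
Log2 difference of BAFF 60mer from no BAFF after mBaffR-mFc (vertical) against that after the control antibody (horizontal) for the tested glycan pathway genes; diamonds are the 6 tested enzymes, other genes are green where they passed after both pretreatments, orange after 1 and grey after neither, and the dotted line marks equal differences. Chst10, St8sia6 and Fcer2a lie at the upper right and B3gnt8 and Gcnt1 at the lower left, while B3gnt7 lies above the line at -0.48 and 0.11.

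The genes whose levels followed those of B3gnt7 most closely were sought over the 18 libraries as a description, by Pearson's r of log2(FPKM + 1). They were Dapp1, a B cell adaptor protein gene (r = 0.833), Steap3 (0.807), Rflnb (0.792), Saraf, a regulator of store-operated calcium entry (0.784), and Wdr26 (0.779). Dapp1 had 47.0 ± 3.16 FPKM in BRFc_60mer and 41.8 ± 1.04 FPKM in Ab_60mer, with 46.0 to 47.4 FPKM as the means of the other groups. Rflnb had 4.36 ± 0.425 FPKM in BRFc_60mer and 2.50 ± 0.408 FPKM in Ab_60mer (SD, n = 3 each). None of the 5 passed between the pretreatments at BAFF 60mer. Those most like B3gnt8 were Fam78a (0.957), Ccm2 (0.953) and Gdi2 (0.947), and each fell with BAFF 60mer after both pretreatments. Those most like Chst10 were Ift140 (0.982), the NF-kB inhibitor gene Nfkbie (0.978) and the B cell transcription factor gene Spib (0.974), and each rose after both. For St6gal1 the most alike were Wipf1 (0.857), Dcaf5 (0.853) and Snrk (0.848), for B4galt1 Scd1 (0.886), Msl2 (0.882) and Cd47 (0.831), and for Mgat5 Xpr1 (0.821), Tcf4 (0.806) and Kat6a (0.767). The libraries share groups, depth and cell makeup, and no test is attached to these values of r.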

How the data were processed

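RNA of 18 libraries was deposited by the authors as FPKM per gene, computed per the labels' protocols by a sequencing company; the aligner, counter, build, strand and scaling are not given in the sources used here. No column was left out (0). Symbols and positions are from GENCODE M21 (GRCm38), which matched 34490 of 35275 identifiers, and promoters from RefSeq. Library totals were recovered from FPKM steps of the 14953 genes with a single transcript. Of their values above 0 and below 500 fragments, 88.3% to 89.4% came out whole to within 0.1. Fragment counts of the members are inferred, at the shortest gene length that gave whole fragments in all libraries.

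Values were taken as log2(FPKM + 1), which understates changes of low genes. Testing covered the 11646 genes that averaged 1 FPKM or more and used limma 3.58.1 (R 4.3.3; variance trend, 6 group means) in 9 comparisons and 2 interactions, adjusted over all genes by Benjamini-Hochberg. The members, gene lists, marker lists and tests were chosen with earlier results of these data known. The genes named are the members, of each list up to 4 of smallest adjusted p and the 3 of highest level, and the 3 genes most like a member (5 for B3gnt7); Spp1 and Pkib were named after their values were seen, and some were left out for length. Replicate numbers follow the order of deposition. The steps were tested on simulated data. Each result was recomputed with a pseudocount of 0.1, without the filter, with a minimum of 5 FPKM, with median-of-ratios rescaling, in a fit of only the groups compared, without each library in turn and, as chosen after seeing the data, with a connective tissue term. The deposited gene lengths could not be traced for 4 of the 7 members, which can shift levels, the filter and, through the pseudocount, differences. Python 3.11.15 and matplotlib 3.10.9 made the figures.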

Additional observations from a re-analysis of the deposited data

Results flagged for a closer look

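The interaction of BAFF 60mer with the pretreatment for B3gnt7 was 0.60 ± 0.089 on the log2 scale. It is listed because the difference of BAFF 60mer from no BAFF after mBaffR-mFc (0.11 ± 0.063) and that after the control antibody (-0.48 ± 0.063) differed by the test of the interaction itself (adjusted p = 0.047, limma). It did not pass in any of 12 fits that left out 1 library (adjusted p between 0.0561 and 0.247), without the filter (0.118), with rescaling (0.0518) or in the fit of only the groups compared (0.0898). B3gnt7 was chosen with this value known.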

How the results depend on the processing

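Of 864 recomputed differences of the tested members, 790 kept their direction and their side of the threshold, 30 lost the threshold and 44 changed sign, none of the last having passed. The cause was not tested unless fewer libraries or genes are named. Members past the threshold in the 60mer interaction numbered 0 without the filter (adjusted p = 0.118), with rescaling (0.0518), in the fit of only the groups compared (0.0898) and without each library (0 to 0). For BAFF 60mer against no BAFF after mBaffR-mFc they numbered 1 without the filter and in the groups-only fit, and 1 to 2 without a library; against BAFF 3mer after mBaffR-mFc 1 to 2 without a library. Between pretreatments at BAFF 60mer the groups-only fit left 0. Pathway genes past the threshold after mBaffR-mFc numbered 3 in the groups-only fit and 5 to 9 without a library against no BAFF (5 without BRFc replicate 3 or BRFc_60mer replicate 1), and 6 without the filter, 6 in the groups-only fit and 6 to 8 without a library against BAFF 3mer.

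With the connective tissue term, against no BAFF 0 members and 1 pathway gene passed after mBaffR-mFc (10 of all genes, in place of 563), and 1 member and 1 pathway gene after the control antibody (16, in place of 1628); against BAFF 3mer after mBaffR-mFc 0 members and 1 pathway gene passed (15 of all genes, in place of 601). The groups-only fit also lowered the counts over all genes, to 139 against no BAFF and 287 against BAFF 3mer after mBaffR-mFc, and to 1053 and 252 after the control antibody. That term changed the sign of uncalled differences. For BAFF 60mer against no BAFF after mBaffR-mFc these were B3gnt7 (-0.065), St6gal1 (0.12) and Mgat5 (0.0034), and after the control antibody St6gal1 (0.039). For BAFF 3mer they were B3gnt8 against no BAFF after the control antibody (0.066) and between pretreatments (-0.0013), and the interactions of B3gnt8 (-0.025) and Chst10 (0.015). Rescaling turned Chst10 with BAFF 3mer after the control antibody (0.013) and B3gnt7 between pretreatments with BAFF 3mer (-0.0020).

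Leaving out a library changed the sign of small differences. With BAFF 3mer against no BAFF after mBaffR-mFc, B3gnt8 ran from -0.073 to 0.10, Chst10 from -0.082 to 0.046 and B4galt1 from -0.086 to 0.014; after the control antibody B3gnt8 ran from -0.21 to 0.076, Chst10 from -0.028 to 0.040 and St6gal1 from -0.018 to 0.062. The BAFF 3mer interaction ran from -0.047 to 0.065 for B3gnt7, -0.035 to 0.25 for B3gnt8 and -0.079 to 0.049 for Chst10. Between pretreatments B3gnt7 ran from -0.045 to 0.0092 and B3gnt8 from -0.14 to 0.14 without BAFF, B3gnt7 from -0.056 to 0.056 and St6gal1 from -0.074 to 0.0066 with BAFF 3mer, and Chst10 from -0.051 to 0.039 with BAFF 60mer. Mgat5 with BAFF 60mer against no BAFF after mBaffR-mFc ran from -0.082 to 0.012.

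No paired analysis was possible because the labels give no replicate numbers. Depth limits B3gnt2 most, at an inferred 10 to 32 fragments a library, and then B3gnt8.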
